A study of Homo sapiens with 6 samples.

Results

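Collagen prolyl 4-hydroxylases, lysyl hydroxylases and lysyl oxidases modify collagen chains before and after secretion, and their transcripts were followed in EA.hy926 cells under low oxygen. The 10 genes were taken by symbol: P4HA1, P4HA2, P4HA3 and P4HB for prolyl 4-hydroxylase, PLOD1, PLOD2 and PLOD3 for lysyl hydroxylase, and LOX, LOXL1 and LOXL2 for lysyl oxidase. All 10 were present among the 22153 genes of the table, and none was absent. EA.hy926 is an established human hybrid line, obtained by fusion of endothelial cells of the umbilical vein with A549 lung carcinoma cells. The hypoxia group was 3 libraries of cells kept at 1% oxygen for 8 h once they had reached 80 to 90% confluence. The normoxia group was 3 libraries of the same line at 20% oxygen, with the same confluence given. Polyadenylated RNA was sequenced in all 6 libraries. Nothing in the labels states that the replicates were grown as separate cultures. The p-values then cover only the spread among these 6 samples, which may be technical.

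Prolyl 4-hydroxylase works in the endoplasmic reticulum as a tetramer of catalytic alpha subunits, encoded by P4HA1, P4HA2 or P4HA3, and beta subunits, encoded by P4HB, which is also the general protein disulfide isomerase. Hydroxyproline lets the collagen triple helix stay folded at body temperature, and hydroxylysine, made by the PLOD enzymes, is a site for sugars and for cross-links. Both enzyme families use molecular oxygen, iron, ascorbate and 2-oxoglutarate, as do the prolyl hydroxylases that mark hypoxia-inducible factor (HIF) for destruction. Lysyl oxidases are secreted copper enzymes that oxidise lysine and hydroxylysine in collagen and elastin so that fibres cross-link. In fibroblasts and tumour cells, P4HA1, P4HA2, PLOD2 and LOX are known HIF target genes.

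Libraries held from 17226736 to 18652704 reads assigned to genes. Normoxia replicate 3, with 18460466 reads, had the fewest genes with any read, 16741, against 18214 to 18858 in the other libraries. Levels are given as size-factor-scaled reads, the unit of the deposited table, and levels of different genes are compared on an FPKM scale, which also divides by exon length. The endothelial label was checked with 12 marker genes, of which 10 passed the filter on low values. The others were nearly absent: EMCN was at 0 in hypoxia replicates 1 and 3 and normoxia replicate 3 and at most 3.79 scaled reads elsewhere, and CLDN5 was at 0 in normoxia replicate 3 and at most 5.30 elsewhere. The summed FPKM-scale level of the 12 ran from 683 to 1733 in hypoxia and from 623 to 1293 in normoxia. Epithelial markers (7 of 8 analysed here) summed to between 620 and 963 in hypoxia and between 695 and 1124 in normoxia, and fibroblast and mural markers (7 of 11) to between 14.3 and 15.1 in hypoxia and between 10.5 and 22.2 in normoxia. Nearly all of the epithelial sum came from KRT7, KRT8 and KRT18 (501, 247 and 214 in hypoxia replicate 1). MUC1 was between 0.31 and 1.40. EPCAM, KRT19 and SFTPB did not pass the filter (at most 0.40, 0.46 and 0.04 in any library), and CDH1 was not in the table. No marker of the 3 lists passed the test of differences. Libraries also differed in how they represented genes by GC content. The median log2 deviation of genes above the upper quartile of GC content (57.1%) minus that of genes below the lower quartile (42.9%) was -0.35, 0.57 and -0.34 in hypoxia replicates 1 to 3 and 0.79, 0.18 and -0.87 in normoxia replicates 1 to 3.

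Of the 10 genes, 9 had a higher fitted level in hypoxia, beside 50.6% of the 10237 genes tested. None of the 10 passed the limma test at an adjusted p below 0.05, which 0.0977% of the genes tested did. The median log2 difference of the 10 was 0.48, beside 0.0035 over all genes tested. It was 0.24 without hypoxia replicate 2 and 0.26 without normoxia replicate 3. At an unadjusted p below 0.05 there were 3 of the 10 (P4HA1, P4HA2 and LOX), beside 2.69% of all genes. DESeq2 called 1 of the 10, P4HA1 (background 0.488%), and edgeR called none (background 0.0977%), with 2 at an unadjusted p below 0.05 by each tool. The share of all genes at that unadjusted p was taken for limma only, so unadjusted counts by DESeq2 and edgeR have no background here. P4HA1 and P4HA2 were the members in which every hypoxia library was above every normoxia library, a pattern that 4.77% of genes tested showed. For scale, the well known hypoxia genes BNIP3, SLC2A1, PGK1 and LDHA rose, with log2 differences of 3.47, 2.94, 1.77 and 1.70 (SE 0.21, 0.33, 0.19 and 0.19, limma adjusted p = 0.00207 for BNIP3 and 0.0236 for the others). VEGFA, the angiogenic growth factor, had a log2 difference of 1.39 (SE 0.35), with an adjusted p of 0.863 by limma and 0.00345 by DESeq2. BNIP3 passed in 19 of 19 alternatives, SLC2A1 in 13, LDHA in 12 and PGK1 in 11, with adjusted p up to 0.142 for SLC2A1, 0.275 for LDHA and 0.192 for PGK1. All 3 lost the call without any 1 of the libraries other than normoxia replicate 3, and PGK1 also after the GC correction (adjusted p = 0.0714). The P4HA1 difference of 1.91 (SE 0.35) lay between those of PGK1 and SLC2A1.

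**Figure D1:**
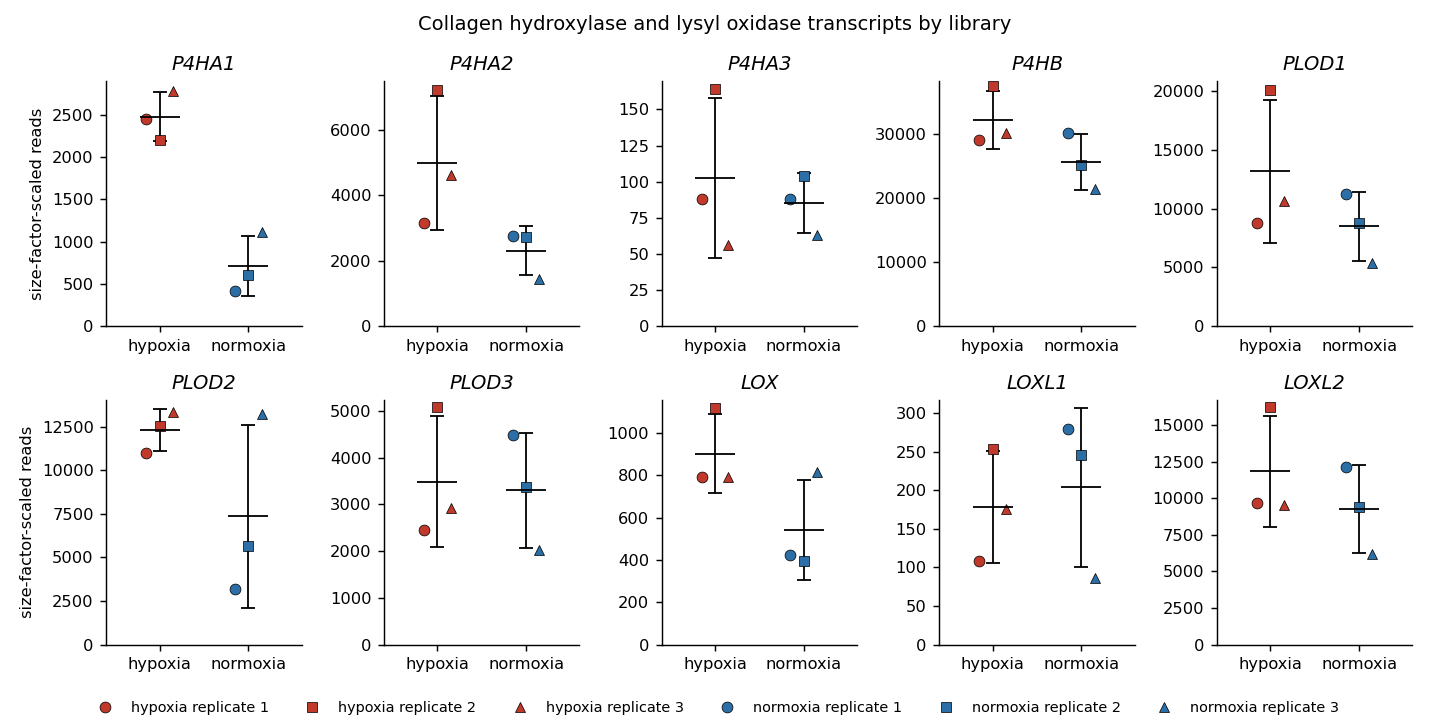
Size-factor-scaled reads (y axis, linear, from 0) of the 10 genes in each library, with hypoxia in red and normoxia in blue. Symbols mark replicates 1, 2 and 3 and bars the mean ± SD. P4HA1 lies between 2201 and 2778 in hypoxia and between 417 and 1113 in normoxia, while PLOD2 in normoxia replicate 3 reaches 13238, level with hypoxia.

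The sequences upstream of the 4 genes with the largest differences are shown because hypoxia-inducible factor binds the core letters ACGTG or GCGTG. They are the 250 bases before the RefSeq transcript start, 5′ to 3′ on the strand of the gene (GRCh38.p14, minus strand for all 4), with ACGTG or GCGTG on either strand in capitals (CACGT and CACGC are their other strands). P4HA1 spans chr10:73096867-73097116, P4HA2 chr5:132227092-132227341, PLOD2 chr3:146161185-146161434 and LOX chr5:122078260-122078509.
P4HA1: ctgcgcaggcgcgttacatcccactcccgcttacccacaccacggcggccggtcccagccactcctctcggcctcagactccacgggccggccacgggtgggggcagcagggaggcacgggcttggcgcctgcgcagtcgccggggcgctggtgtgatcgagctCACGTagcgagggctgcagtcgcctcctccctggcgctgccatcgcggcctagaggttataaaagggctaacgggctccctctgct
P4HA2: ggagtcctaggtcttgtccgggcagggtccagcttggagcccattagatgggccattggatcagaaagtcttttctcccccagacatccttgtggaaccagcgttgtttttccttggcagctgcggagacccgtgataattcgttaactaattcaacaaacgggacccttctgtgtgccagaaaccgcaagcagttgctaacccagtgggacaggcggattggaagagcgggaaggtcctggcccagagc
PLOD2: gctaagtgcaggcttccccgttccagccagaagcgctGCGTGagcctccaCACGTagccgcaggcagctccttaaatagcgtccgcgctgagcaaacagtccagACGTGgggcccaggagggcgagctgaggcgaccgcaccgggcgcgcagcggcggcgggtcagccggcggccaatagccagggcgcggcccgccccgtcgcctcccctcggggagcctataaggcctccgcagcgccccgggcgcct
LOX: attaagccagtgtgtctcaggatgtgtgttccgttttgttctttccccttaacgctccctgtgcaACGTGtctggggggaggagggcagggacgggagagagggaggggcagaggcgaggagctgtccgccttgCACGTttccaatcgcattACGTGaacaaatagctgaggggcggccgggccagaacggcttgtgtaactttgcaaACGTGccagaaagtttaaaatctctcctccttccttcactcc
P4HA1 held 1 ACGTG, on the opposite strand from 86 to 82 bases before the start. PLOD2 held 2 ACGTG and 1 GCGTG, all of them between 213 and 142 bases before the start, and LOX held 4 ACGTG from 185 to 38 bases before it. P4HA2 held neither in this window. The annotated genes of P4HA2 and PLOD2 begin upstream of their windows, at 132295315 and 146163653. Those of P4HA1 and LOX begin inside their windows, at 73096974 and 122078360. None of the 4 windows is thus wholly upstream of its annotated gene. RefSeq windows were available for 8 of the 10 genes, and 5 of the 8 held either motif, beside 43.2% of all 35116 windows of the same length. The 5 included P4HB (1 GCGTG) and PLOD1 (2 GCGTG), whose groups overlapped as deposited. PLOD3 and LOXL1 held neither, and nor did P4HA2, whose groups were separate. ACGTG alone was in 3 of the 8 and in 18.5% of all windows. A match of letters is a description and does not show binding.

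P4HA1, the catalytic alpha subunit I that most cells rely on, had the largest difference of the group. The gene spans 73007217 to 73096974 of chromosome 10, minus strand (GENCODE 29, GRCh38, as for all gene positions given). P4HA1 had 2444, 2201 and 2778 scaled reads in hypoxia replicates 1 to 3, against 417, 600.4 and 1113 in normoxia replicates 1 to 3. Every hypoxia library was far above every normoxia library, and the hypoxia libraries lay close together while normoxia replicate 3 was the highest of its group. The means were 2474 ± 289 in hypoxia and 710.1 ± 360.4 in normoxia (SD, n = 3 each), 3.48-fold higher in hypoxia. The log2 difference was 1.91 (SE 0.35, 95% interval 1.10 to 2.71), with an adjusted p of 0.212 by limma, 0.280 by edgeR and 0.00309 by DESeq2. Over 19 alternatives the log2 difference ran from 1.58 to 2.37 and the adjusted p from 4.55e-05 to 1.00, below 0.05 in 7. Those 7 fits called 0.186%, 0.195%, 0.215%, 0.215%, 0.293%, 0.488% and 7.87% of the genes tested. Without normoxia replicate 3 the limma adjusted p was 0.0197 (0.195% of genes called), and without any other single library it stayed above 0.05. With all libraries kept, limma also called P4HA1 after the GC correction (adjusted p = 0.00937) and with the replicate block (adjusted p = 0.0323). The cause was not tested. In bulk RNA, more transcript per cell and more cells that carry it cannot be told apart.

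P4HA2, the alpha subunit II described as abundant in cartilage and endothelial cells, was also higher in every hypoxia library. Its position is chromosome 5, 132191838 to 132295315, minus strand. P4HA2 had 3147, 7219 and 4619 scaled reads in hypoxia, against 2755, 2715 and 1439.8 in normoxia. The groups were separated by a small gap, and hypoxia replicate 2 stood well above the others. The means were 4995 ± 2062 in hypoxia and 2303 ± 748 in normoxia (SD, n = 3 each), 2.17-fold higher in hypoxia. Its log2 difference was 1.09 (SE 0.38, 95% interval 0.22 to 1.96), short of the threshold in limma (adjusted p = 1.00, 0.550 by DESeq2, 0.178 to 1.00 over 19 alternatives). Its exons share 548 bp with P4HA2-AS1 on the opposite strand, a gene with at most 2 reads in any library.

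P4HA3, the third alpha subunit, was scarce. It had 88.2, 163.8 and 56.1 scaled reads in hypoxia, against 87.9, 104.2 and 63.0 in normoxia (minus strand of chromosome 11, 74235801 to 74311657). The groups overlapped. Its log2 difference was 0.16 (95% interval -0.83 to 1.14), and it was negative without hypoxia replicate 2 (-0.22) and without normoxia replicate 3 (-0.03). Its exons share 166 bp with PPME1 on the opposite strand, which had between 1093 and 1847 reads per library. Whether reads were counted by strand is unknown here, so reads of P4HA3 and PPME1 in these bases may not be told apart.

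P4HB, the beta subunit, was the most abundant of the 10 transcripts by far and differed little between groups. It had 29137, 37485 and 30115 scaled reads in hypoxia, against 30195, 25188 and 21445 in normoxia (minus strand of chromosome 17, 81843159 to 81860694). The lowest hypoxia library was below the highest normoxia library. The means were 32246 ± 4564 in hypoxia and 25609.7 ± 4390.3 in normoxia (SD, n = 3 each), a log2 difference of 0.34 (SE 0.21, 95% interval -0.16 to 0.83, limma adjusted p = 1.00). On the FPKM scale P4HB stood at 340.4 ± 48.2 in hypoxia and 270.4 ± 46.3 in normoxia, above PLOD1, the next gene, in 6 of 6 libraries.

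The balance of alpha to beta subunit transcripts was compared within each library. Per exon length, P4HB exceeded the sum of the 3 alpha subunit transcripts 4.65, 4.41 and 3.90 times in hypoxia, against 11.8, 8.81 and 7.42 times in normoxia. The groups did not overlap. The log2 ratio of alpha to beta was -2.11 ± 0.13 in hypoxia and -3.20 ± 0.34 in normoxia (SD, n = 3 each), a difference of 1.09 with an exact two-sided permutation p of 0.10, the smallest that 3 against 3 samples allow. This ratio needs no scaling between libraries, and its difference was 0.908 to 1.24 when each library was left out in turn. After correction for GC content the difference was 1.09 again, with groups that did not overlap.

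Among the alpha subunits the P4HA1 share did not separate the groups. P4HA1 made up 66.8%, 44.4% and 61.7% of the summed alpha subunit level in hypoxia, against 28.1%, 36.0% and 66.0% in normoxia, per exon length. Normoxia replicate 3 was as high as the highest hypoxia libraries. The means were 57.7% ± 11.7 in hypoxia and 43.4% ± 20.0 in normoxia (SD, n = 3 each, exact two-sided permutation p = 0.30). The difference of 14.3 percentage points ran from 6.66 when normoxia replicate 1 was left out to 25.6 when normoxia replicate 3 was. The annotated exons of P4HA2 total 8502 bp and those of P4HA1 3093 bp, so the share depends on which exons these cells use. As a share of reads, P4HA1 averaged 34.4% in hypoxia and 24.3% in normoxia.

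**Figure D2:**
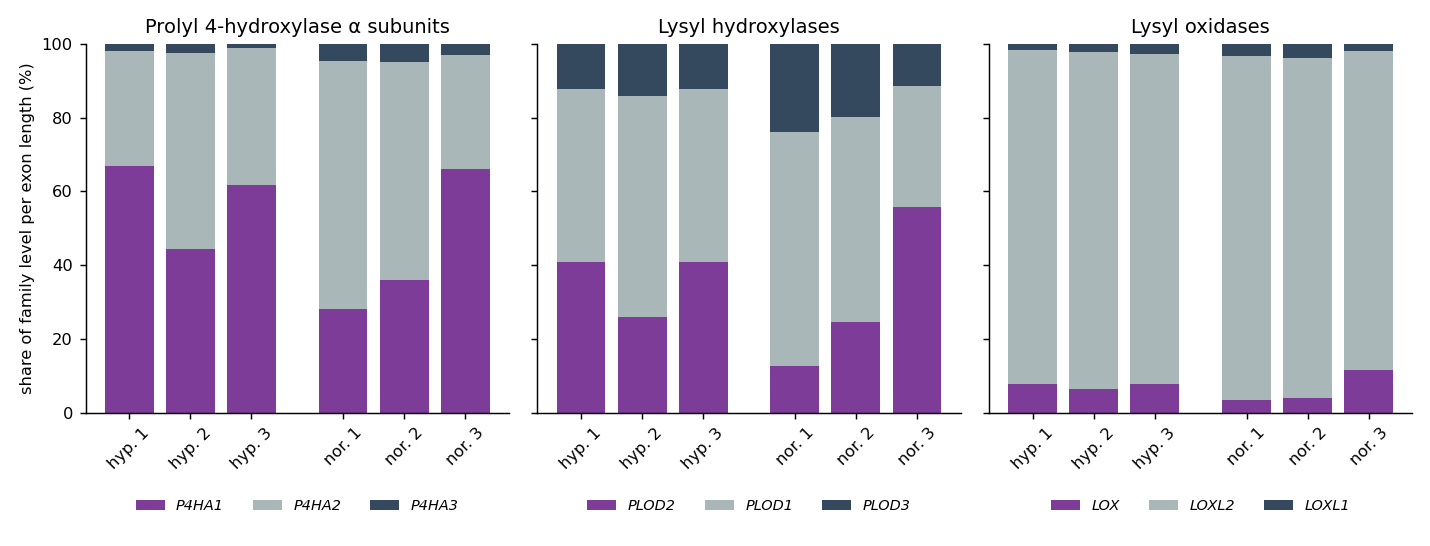
Share of each family's summed level per exon length (y axis, %) in the 3 hypoxia (hyp.) and 3 normoxia (nor.) libraries, for the prolyl 4-hydroxylase alpha subunits, the lysyl hydroxylases and the lysyl oxidases. Shares of P4HA1, PLOD2 and LOX in normoxia replicate 3 are at 66.0%, 55.7% and 11.7%, far above the other normoxia libraries.

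PLOD2, the lysyl hydroxylase that acts on the telopeptides and so directs collagen to stable cross-links, had the largest difference of the lysyl hydroxylases. Its position is chromosome 3, 146069440 to 146163653, minus strand. PLOD2 had 11012, 12538 and 13349 scaled reads in hypoxia, against 3197, 5642 and 13238 in normoxia. The hypoxia libraries were close together, while normoxia replicate 3 stood at the level of hypoxia and apart from the other normoxia libraries. The log2 difference was 0.98 (SE 0.46, 95% interval -0.08 to 2.05, limma adjusted p = 1.00) and 1.53 without normoxia replicate 3, where the test was not passed either. PLOD2 has the lowest GC content of the 10 genes, 34.4%, and normoxia replicate 3 is the library with the strongest lean to GC-poor genes.

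PLOD1, which hydroxylates lysines within the triple helix, had 8803, 20148 and 10633 scaled reads in hypoxia, against 11218, 8824 and 5410.2 in normoxia (plus strand of chromosome 1, 11934205 to 11975538). PLOD3, which carries glycosyltransferase activity beside its hydroxylase activity, had 2445, 5090.3 and 2925 scaled reads in hypoxia, against 4491, 3369 and 2030.4 in normoxia (minus strand of chromosome 7, 101205977 to 101218420). In both genes the groups overlapped, hypoxia replicate 2 was the highest library and normoxia replicate 3 the lowest. Their log2 differences were 0.60 (95% interval -0.27 to 1.48) and 0.08 (95% interval -0.78 to 0.94), and that of PLOD3 was negative without hypoxia replicate 2 and without normoxia replicate 3. The exons of PLOD3 share 429 bp with ZNHIT1 on the opposite strand, which had between 2252 and 2931 reads per library, so some reads of these neighbours may not be told apart. The PLOD2 share of the summed lysyl hydroxylase level was 35.9% ± 8.65 in hypoxia and 31.0% ± 22.3 in normoxia (SD, n = 3 each, exact two-sided permutation p = 0.80).

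LOX, the founding lysyl oxidase, was higher in hypoxia than in 2 of the 3 normoxia libraries. Its position is chromosome 5, 122063195 to 122078360, minus strand. LOX had 794, 1118 and 793 scaled reads in hypoxia, against 422, 393 and 815 in normoxia. As with PLOD2, normoxia replicate 3 reached the hypoxia range and the other normoxia libraries lay well below it. The means were 902 ± 187 in hypoxia and 543 ± 236 in normoxia (SD, n = 3 each), 1.66-fold higher in hypoxia. Its log2 difference was 0.78 (SE 0.33, 95% interval 0.01 to 1.55), which limma did not call (adjusted p = 1.00, 0.0270 to 1.00 over 19 alternatives). The exons of LOX share 138 bp with SRFBP1 on the opposite strand, and SRFBP1 had 577 reads in normoxia replicate 3 and between 71 and 229 in the other libraries.

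LOXL2, which cross-links basement membrane collagen IV, had the highest level of the 3 lysyl oxidases followed here, and LOXL1, which acts on elastin, had the lowest mean and was below LOX in 5 of 6 libraries. LOXL2 had 9700.0, 16260.3 and 9566 scaled reads in hypoxia, against 12176, 9419 and 6204 in normoxia (minus strand of chromosome 8, 23297189 to 23425328). It made up 90.6% ± 0.789 of the summed lysyl oxidase level per exon length in hypoxia. LOXL1 had 108, 253 and 176 scaled reads in hypoxia, against 279.6, 245 and 86.5 in normoxia (plus strand of chromosome 15, 73925989 to 73952137). Groups overlapped in both genes, with log2 differences of 0.36 (95% interval -0.38 to 1.10) for LOXL2 and -0.10 (95% interval -1.25 to 1.05) for LOXL1. The sign of LOXL1 turned without hypoxia replicate 1, normoxia replicate 1 or normoxia replicate 2, and its exons share 335 bp with LOXL1-AS1, which had from 90 to 175 reads per library. The LOX share of the family was 7.25% ± 0.688 in hypoxia and 6.32% ± 4.65 in normoxia (SD, n = 3 each, exact two-sided permutation p = 0.90).

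In the order of FPKM-scale levels over all libraries, P4HB was followed by PLOD1, LOXL2, PLOD2, PLOD3, P4HA1, P4HA2, LOX, LOXL1 and P4HA3. P4HB was the one gene whose range (226 to 396) lay apart from that of the next gene (56.9 to 212.02). The ranges of all other neighbours overlapped. PLOD1 was above LOXL2 in 3 of 6 libraries, PLOD3 above P4HA1 in 3 of 6 and P4HA1 above P4HA2 in 3 of 6, so these pairs have no fixed order. P4HA1 averaged 44.8 ± 5.24 in hypoxia and 12.9 ± 6.52 in normoxia on this scale, P4HA2 32.9 ± 13.6 in hypoxia and 15.2 ± 4.93 in normoxia, and P4HA3 1.43 ± 0.773 in hypoxia and 1.19 ± 0.289 in normoxia.

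In the pairs of libraries compared here, differences within a group went with the GC content of the genes, and the fits were repeated after a correction for it. Between normoxia replicates 3 and 1 the log2 difference was 2.05 for PLOD2 (GC content 34.4%), 1.40 for P4HA1 (40.8%) and 0.94 for LOX (39.6%). It was -1.62 for LOXL1 (67.6%), -1.14 for PLOD3 (61.7%) and -1.05 for PLOD1 (58.6%). The GC-poor members were thus high and the GC-rich members low in normoxia replicate 3. Spearman's rho of GC content with this difference was -0.93 across the 10 members, which share the same 2 libraries, and -0.66 across 10233 genes tested with a GC value. These are the 2 libraries with the most extreme GC trends (-0.87 and 0.79). Between hypoxia replicates 2 and 1 the relation was weaker, with a rho of 0.56 across the 10 members and 0.47 across the 10233 genes.

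**Figure D3:**
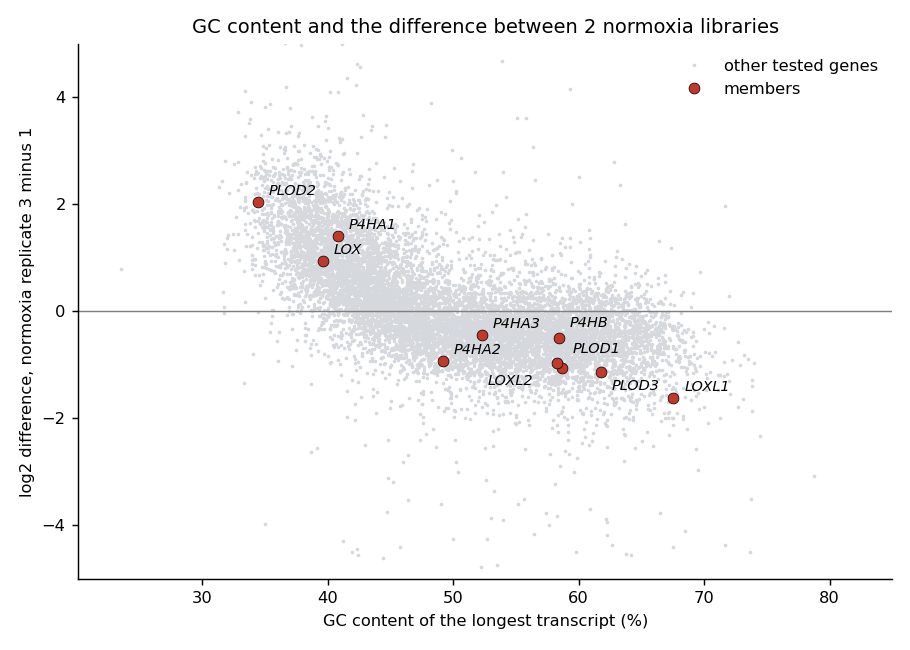
Log2 difference between normoxia replicates 3 and 1 (y axis) against GC content of the longest annotated transcript (x axis, %), for the 10 members (red, labelled) and the other tested genes (grey), of which 18 lie outside the plotted range. PLOD2, P4HA1 and LOX lie above 0 at GC contents of 34.4% to 40.8%, and the other members lie below 0.

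After a correction of each library for this trend the SD was smaller in 10 of 10 members in normoxia, and in hypoxia in all but PLOD2 and LOX. The correction was fitted to these same libraries, so a smaller spread is built in for genes that follow the trend. The share of all genes with a smaller SD was not taken, so these counts have no background here. P4HB in log2 units had an SD of 0.0288 in hypoxia and 0.0322 in normoxia after the correction, against 0.20 in hypoxia and 0.25 in normoxia before it. The SD of PLOD2 in normoxia was 0.24 after the correction and 1.03 before it, whereas in hypoxia it was 0.47 after and 0.14 before. After the correction every hypoxia library was above every normoxia library in 7 of the 10 genes, P4HA1, P4HA2, P4HB, PLOD1, PLOD2, LOX and LOXL2, beside 4.86% of the genes tested. The others were P4HA3, PLOD3 and LOXL1, in which the groups overlapped. P4HA1 passed the limma test there, with a log2 difference of 1.88 (SE 0.19, 95% interval 1.44 to 2.32, adjusted p = 0.00937, 0.215% of genes called). The other 9 did not, with log2 differences of 1.04 for P4HA2 (adjusted p = 0.813), 0.97 for PLOD2 (0.677), 0.76 for LOX (0.998), 0.61 for PLOD1 (0.998) and 0.35 for P4HB (0.998). The rest were 0.37 for LOXL2, 0.11 for P4HA3, 0.10 for PLOD3 and -0.15 for LOXL1 (limma adjusted p = 0.998 for each). With a wider smoothing window the count of genes with separate groups was 5, without PLOD1 and LOXL2 (background 4.96%).

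**Figure D4:**
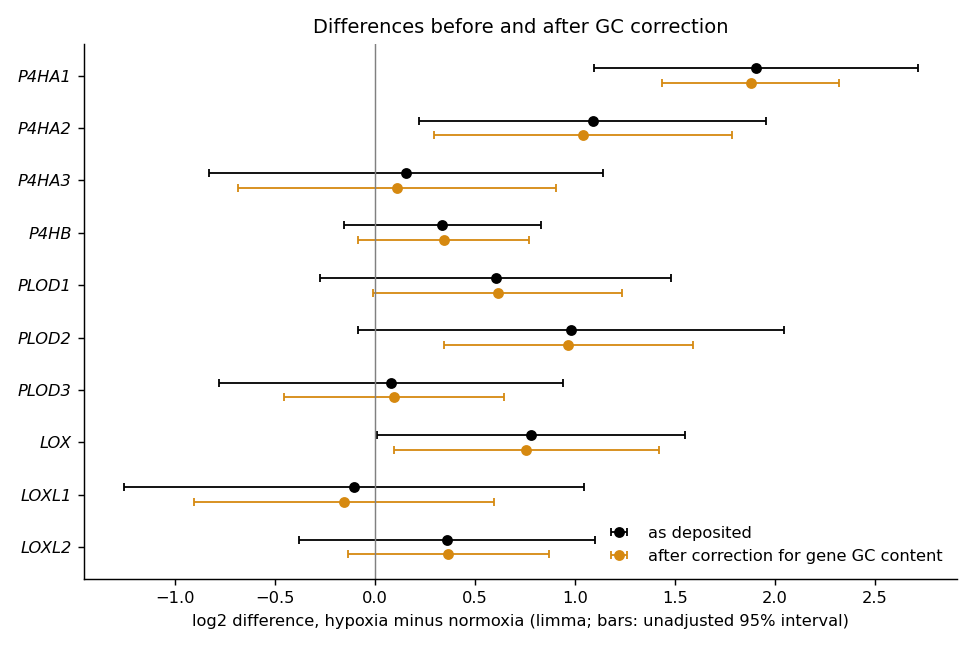
Log2 difference, hypoxia minus normoxia (x axis), of the 10 genes from the limma fit of the values as deposited (black) and after correction for GC content (orange). Bars are unadjusted 95% intervals, and that of P4HA1 runs from 1.10 to 2.71 as deposited and from 1.44 to 2.32 after the correction.

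The genes whose levels followed P4HA1 most closely over the 6 libraries were FAM107B, TPM4 and FAM162A, each with a Pearson r of 0.99 on the log2 scale. FAM162A, a mitochondrial protein, had 1662, 1633 and 1863 scaled reads in hypoxia, against 293, 349 and 597 in normoxia (log2 difference 2.10, limma adjusted p = 0.0791). FAM107B had 5473, 5531 and 6616 in hypoxia, against 2473, 2965 and 3878 in normoxia (log2 difference 0.94, adjusted p = 0.756). TPM4, an actin-binding tropomyosin, had a far smaller difference, at 6598, 6647 and 6921 in hypoxia and 5415, 5683 and 6156 in normoxia (log2 difference 0.23).

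Other genes of collagen handling did not pass the test in either direction, which few genes of any kind did (0.0977% by limma and by edgeR, 0.488% by DESeq2). An unadjusted p below 0.05 was reached by 2.69% of all genes by limma. Lists this short with none passing, here and for the export and substrate genes below, are near these shares. Of 13 further modifying enzymes and chaperones, 10 were tested by limma and none passed, none by DESeq2 or edgeR, and none had an unadjusted p below 0.05. Their median log2 difference was 0.09, and 8 of the 10 were positive, beside 50.6% of all genes tested. The median was negative without hypoxia replicate 2 (-0.09) and without normoxia replicate 3 (-0.16). The largest were FKBP14, a prolyl isomerase, with 234, 113 and 343 scaled reads in hypoxia and 216, 280.3 and 376 in normoxia (log2 difference -0.42), and its relative FKBP10 at 7525, 12451 and 10798 in hypoxia and 10401, 10409 and 5179 in normoxia (0.28). Both overlapped between groups, and the sign of each turned in an alternative.

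Of 13 genes of procollagen export and propeptide cleavage, 8 were tested and none passed or had an unadjusted p below 0.05 by limma, DESeq2 or edgeR. Their median was 0.05 and 5 of the 8 were positive, beside 50.6% of all genes tested. That median was negative without hypoxia replicate 3 (-0.03) and without normoxia replicate 1 (-0.08). MIA3, which loads procollagen into transport carriers, had 129.6, 269.6 and 227 scaled reads in hypoxia, against 193, 237 and 525 in normoxia (log2 difference -0.49). PCOLCE2, an enhancer of procollagen C-proteinase, had 175, 111.0 and 179.7 in hypoxia, against 121, 181 and 109 in normoxia (0.18). The substrates, 25 collagen and elastin genes, gave 10 tested with none past the test or at an unadjusted p below 0.05 by the same 3 tools. Their median was 0.13 and 7 of the 10 were positive, again beside 50.6%. The median was negative without hypoxia replicate 2 (-0.27) and without normoxia replicate 3 (-0.26). COL5A1 had 1828, 5428 and 2789 scaled reads in hypoxia, against 4526, 2902.5 and 1199 in normoxia, and COL4A2 had 445, 1199.7 and 677 in hypoxia, against 862, 616 and 319 in normoxia. Their log2 differences of 0.27 and 0.34 were negative without hypoxia replicate 2 and without normoxia replicate 3.

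The list of protein disulfide isomerases and the enzymes that reoxidise them held 9 genes. Among them was MTTP, which is of neither kind and was not in the table. In all, 7 were tested and all 7 were positive, beside 50.6% of all genes tested. Their median was 0.22 (0.09 without normoxia replicate 3 and 0.14 without hypoxia replicate 3). None passed by limma, DESeq2 or edgeR, and 1 had an unadjusted p below 0.05 by each (2.69% of all genes did by limma). That gene was ERO1A, the oxidase that regenerates disulfide isomerases and uses molecular oxygen, with 2539.9, 4873 and 3699.6 scaled reads in hypoxia, against 1389.6, 1798 and 2085 in normoxia. Its groups did not overlap, and its log2 difference was 1.04 (SE 0.29, limma adjusted p = 1.00, 0.256 by DESeq2, 0.0323 to 1.00 over 19 alternatives). TXNDC5, a thioredoxin-domain isomerase, had 248, 372 and 476 in hypoxia, against 451, 454 and 105 in normoxia (log2 difference 0.32, negative without normoxia replicate 3).

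The oxygenases that act on HIF use the same co-substrates as the collagen hydroxylases. The list held 4 of them, EGLN1, EGLN2, HIF1AN and P4HTM, and left out EGLN3. Of these 4, 3 were tested, with a median of 0.28 and all 3 positive, beside 50.6% of all genes tested. Without normoxia replicate 3 the median was -0.02. None passed by limma or edgeR, and 1 had an unadjusted p below 0.05 by each tool (2.69% of all genes did by limma). DESeq2 called that gene, EGLN1 (background 0.488%). EGLN1, the main HIF prolyl hydroxylase, had 761, 1193.5 and 778 scaled reads in hypoxia, against 380.2, 478 and 399 in normoxia, with groups that did not overlap. Its log2 difference was 1.07 (SE 0.27), with an adjusted p of 0.821 by limma and 0.0452 by DESeq2 (0.0452 to 1.00 over 19 alternatives). P4HTM, a membrane-bound prolyl 4-hydroxylase, had 356, 568 and 501 in hypoxia, against 498, 448 and 248 in normoxia (log2 difference 0.28, adjusted p = 1.00 by limma).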

How the data were processed

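RNA of EA.hy926 cells was sequenced in 3 hypoxia and 3 normoxia libraries, with NEBNext Ultra libraries per the labels' protocols. The submitters' processing notes list CASAVA, HISAT2 2.0.5 and featureCounts 1.5.0-p3, and a mouse build that cannot apply to human gene identifiers. The build and annotation behind the counts, and the strand setting, are unknown here.

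The deposited signal is a whole read count per gene divided by 1 size factor per library: within a tolerance of 0.05 reads, 100% of values gave whole reads once divided by the library's step (size factors 0.944 to 1.06), although the file is named for FPKM. No further per-sample columns were present. Values were divided by GENCODE 29 exon length and mean library total (the FPKM scale). Genes at 1 or more in at least 3 libraries (10237) were fitted as log2(value + 0.1) with limma 3.58.1 (R 4.3.3), with trend, robust variances and Benjamini-Hochberg adjustment. A log2 difference on this scale understates the change of low genes. The limma fit had been set as the main test for the deposited values, and edgeR 4.0.16 and DESeq2 1.42.0 were run on the recovered reads as alternatives. The GC correction subtracts a loess curve (span 0.3) of each library's log2 deviation on GC content of the longest transcript. The main limma fit and the edgeR and DESeq2 fits were tested on simulated reads, which held no GC trend. The GC correction, the replicate block and the other alternatives were not tested in this way.

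The 10 genes and the lists were chosen with earlier results of these data known. Named beside them are, from each list, the members past the test or else the 2 with the largest difference, 5 hypoxia genes, and the 3 coding genes most like P4HA1. Promoter windows are from RefSeq (GRCh38.p14).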

Additional observations from a re-analysis of the deposited data

How the results depend on the processing

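P4HA1, P4HA2, P4HB, PLOD2 and LOX kept a positive log2 difference in all 19 alternatives, with sizes that moved as follows. The count of members past the test, 0 as reported, was 1 (P4HA1) with DESeq2 (log2 difference 1.78), with the GC correction (1.88, or 1.88 with a wider smoothing window) and with the replicate block (1.91 as reported, adjusted p = 0.0323, and 1.88 with GC correction and block). Over all genes the count, 10 as reported, was 50 with DESeq2, 22 with either GC correction, 19 with the block, 30 with GC correction and block, and 4 with no filter on low values. Same-numbered libraries deviated with correlations of -0.40, 0.24 and 0.22, and other pairs with correlations from -0.56 to 0.61. These values do not show that numbers pair samples. They cannot exclude it, as the libraries also differ in GC trend. The blocked values are a description.

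Leaving out 1 library at a time gave 0 to 1 members past the test, 1 to 20 genes in all and 2 to 4 members with separate groups (7 with the GC correction and 5 with the wider window, as reported 2). Those leave-one-out fits separated 6.64% to 12% of all genes, against 4.77% as reported. Log2 differences then ran from 1.58 to 2.29 for P4HA1, 0.78 to 1.38 for P4HA2, 0.22 to 0.46 for P4HB, -0.22 to 0.50 for P4HA3, -0.23 to 0.34 for PLOD3, 0.25 to 0.85 for PLOD1, 0.50 to 1.53 for PLOD2, 0.59 to 1.11 for LOX, -0.61 to 0.21 for LOXL1 and 0.10 to 0.58 for LOXL2. For genes outside the 10 they ran from -0.03 to 0.67 for COL4A2, -0.26 to 0.69 for COL5A1, -0.05 to 0.49 for FKBP10, -0.76 to 0.00025 for FKBP14, -0.02 to 0.47 for P4HTM and -0.35 to 0.66 for TXNDC5. Medians ran from 0.24 to 0.67 for the 10 genes, -0.16 to 0.27 for modifying enzymes, -0.08 to 0.10 for export, -0.27 to 0.42 for substrates, 0.09 to 0.31 for disulfide isomerases and -0.02 to 0.47 for HIF oxygenases. Share differences ran from 6.66 to 25.6 percentage points for P4HA1, -4.29 to 17.3 percentage points for PLOD2 and -0.57 to 3.61 for LOX.

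Leaving out both normoxia replicate 3 and hypoxia replicate 2, an alternative chosen after seeing the data, left a GC trend above 0 in both remaining normoxia libraries and below 0 in both hypoxia libraries. It gave 806 genes (7.87%), 3 of the 10 among them: P4HA1 at 2.37, PLOD2 at 1.51 and LOX at 0.95. P4HA2 was at 0.48, P4HB at 0.10 and LOXL1 at -0.89, and the median of the 10 was 0.03. PLOD1 (-0.040), PLOD3 (-0.54), LOXL2 (-0.15), P4HA3 (-0.41), COL4A2 (-0.39), COL5A1 (-0.68), FKBP10 (-0.21), FKBP14 (0.20), P4HTM (-0.16) and TXNDC5 (-0.39) turned sign, and 1 disulfide isomerase gene, ERO1A, was called. The wider window, the GC-corrected shares and the counts of separate groups were also chosen after seeing the data. The cause of these changes was not tested.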
